A study of Sus scrofa with 3 samples.

Results

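Surfactant is the mixture of phospholipid and protein that lowers surface tension in the alveoli, and it is made, stored and released by alveolar type 2 cells, the cuboidal cells of the alveolar wall. Surfactant proteins B and C are small hydrophobic proteins that help spread the phospholipid film, surfactant protein A is a larger collectin that also binds microbes, SLC34A2 is the sodium-phosphate cotransporter of the type 2 cell surface, and ETV5 is an ETS-family transcription factor that acts downstream of fibroblast growth factor receptors and is needed to keep type 2 cell identity. The 5 genes described here, SFTPA1, SFTPB, SFTPC, SLC34A2 and ETV5, were taken by gene symbol. They account for 6 of 23935 probe sets, and for 5 of 6765 named genes, on Affymetrix porcine arrays that read each transcript with short probes near its 3' end.

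The 3 arrays come from lung tissue of minipigs, a small breed of pig. The sham array is lung tissue labelled as sham minipig. The operated array is a left lung in which the pulmonary artery had been closed for a time and reopened, with the bronchus left alone so that the lung stayed ventilated, and the non-operated array is a right lung with the same label of lung ischemia-reperfusion. Each group is 1 array, and strain, age, occlusion time and reperfusion time remain not given in the sources used here. Whether RNA was pooled, and whether both ischemia-reperfusion lungs came from 1 animal, is likewise not given. The differences below therefore carry no p-value and no check against other animals. Values are MAS5 signals on the log2 scale, in which each array is scaled on its own. A floor was set at each array's median signal, which was 7.33 in sham and 7.31 in either other lung, and values under it were raised to it. Ratios of 2-fold or more, which is 1 on the log2 scale, are called higher or lower. The only internal measure of error is how far several probe sets of a gene disagree, which holds no spread between animals. The pooled SD of their log2 ratios was 0.39 in operated against sham, over 801 genes. It was 0.41 in non-operated against sham, over 783 genes, and 0.22 between the operated and non-operated lung, over 820 genes. In whole tissue, a change in the number of type 2 cells and a change in RNA per cell cannot be told apart.

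The 5 genes did not move together. In the operated lung SFTPB, SLC34A2 and ETV5 were at least 2-fold higher than in sham, while SFTPA1 and SFTPC lay within 0.10 of sham on the log2 scale. In the non-operated lung ETV5 was the only member at least 2-fold higher than sham, with SLC34A2 just under that ratio. Between the lungs SFTPB alone differed by 2-fold, and it was higher on the operated side. None of the 5 was at least 2-fold lower in any comparison. In the operated lung against sham 3 of 5 members were higher and 0 lower, where 8.65% of all counted genes were higher and 8.79% lower. In the non-operated lung against sham 1 of 5 was higher and 0 lower, where 8.96% of all genes were higher and 8.55% lower. In the operated against the non-operated lung 1 of 5 was higher and 0 lower, where 0.0607% of all genes were higher and 0.182% lower.

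**Figure D1:**
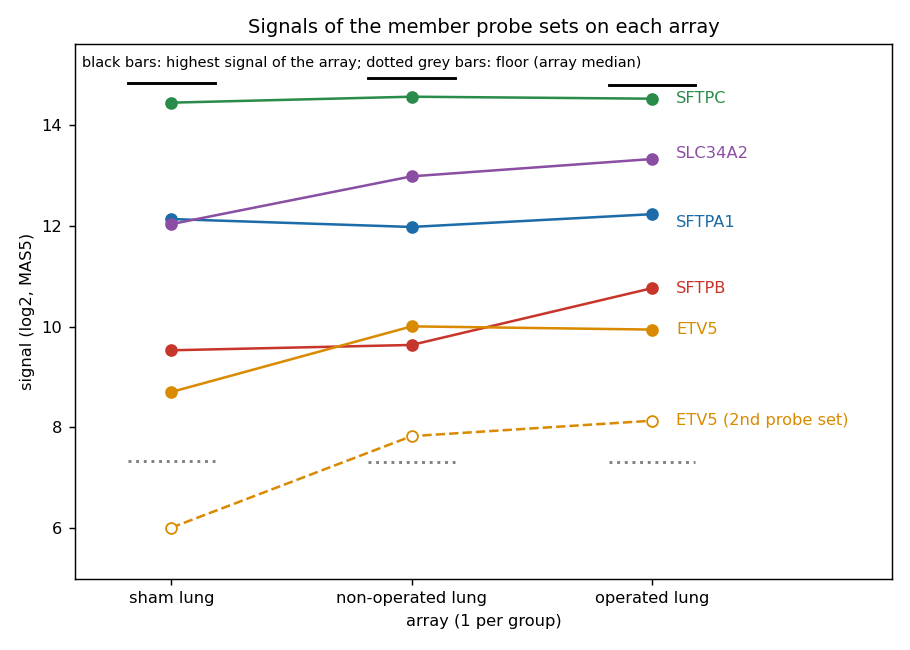
MAS5 signal (log2 axis) of the 6 member probe sets on the sham, non-operated and operated arrays, 1 array per group and so no error bars, with the array's highest signal as a black bar and its floor as a dotted bar. SFTPC runs along the top at 14.44 to 14.56, SFTPB rises only on the operated array, and both ETV5 probe sets are lowest on the sham array.

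Of the surfactant protein genes, SFTPB carried the largest difference between the lungs. Its probe set read 9.53 in sham, 9.63 in the non-operated lung and 10.76 in the operated lung on the log2 scale. Sham and the non-operated lung lay together, 0.11 apart, which is less than the probe set spread of that comparison, and the operated lung stood above both. Against sham the ratio was 2.35-fold for the operated lung (log2 1.23) and 1.08-fold for the other lung, and operated over non-operated it was 2.18-fold (log2 1.13). All 3 signals were well clear of the floor, at 4.60, 5.01 and 10.93 times it, and far from the top of the range, at 2.54%, 2.56% and 6.14% of the array's highest signal.

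Differences of that size between the lungs were rare. Of 4944 genes counted there, 3 were at least 2-fold higher in the operated lung and 9 at least 2-fold lower. SFTPB ranked second among the higher genes, between NCOA7, a nuclear receptor coactivator gene with a lower bound of 2.34-fold because its non-operated signal lay under the floor, and the fibrillar collagen gene COL5A3 at 2.13-fold. Named here after their values were seen, the lower genes with the largest ratios were the adhesion receptor ADGRG1 at -1.55 and the metalloproteinase inhibitor TIMP1 at -1.34. Among the 2067 probe sets whose mean signal over the 2 arrays lay between 10 and 11, as that of SFTPB did, no log2 ratio between the lungs was higher than that of SFTPB. The SD of the ratio there was 0.23, and SFTPB was the 1 probe set at least 2-fold higher. SFTPB is read by 1 named probe set, so no further named probe set bears on this value. Unnamed probe sets were not searched for the gene.

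**Figure D2:**
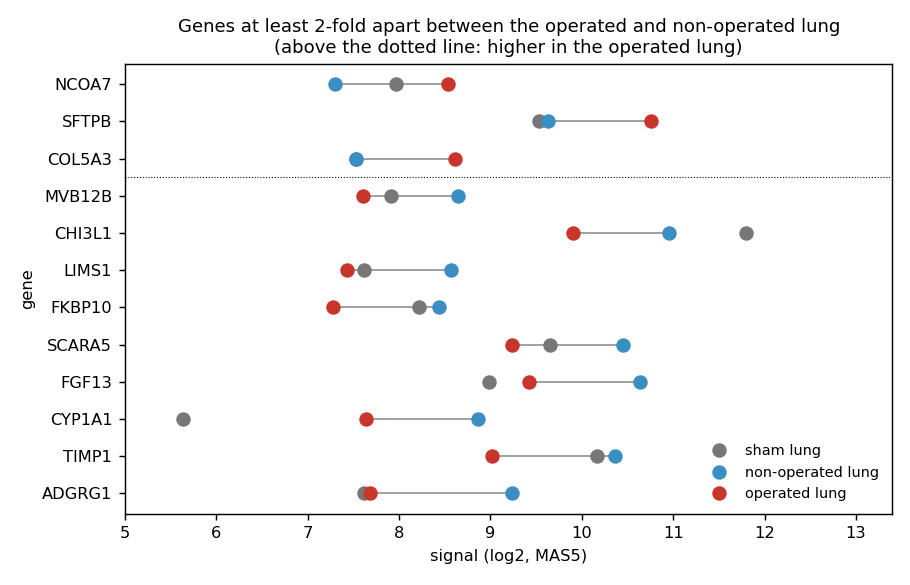
MAS5 signal (log2 axis) of the 12 genes at least 2-fold apart between the operated and the non-operated lung, with sham in grey, the non-operated lung in blue and the operated lung in red, 1 array each. SFTPB is 1 of the 3 genes above the dotted line, and its sham and non-operated points nearly touch. The sham point of COL5A3 is hidden behind its non-operated point, and that of CYP1A1 lies under the floor.

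SFTPC encodes the most type 2 cell-specific of the surfactant proteins, and its probe set lay near the top of each array. Its log2 signal was 14.44 in sham, 14.56 in the non-operated lung and 14.52 in the operated lung, where the highest signals of any probe set were 14.83, 14.92 and 14.79. On the linear scale that is 76.2%, 77.4% and 82.9% of the array maximum, with 25, 10 and 7 probe sets above it. The 3 arrays were thus nearly level. Against sham the ratio was 1.06-fold for the operated lung and 1.09-fold for the other lung, and operated over non-operated it was 0.973-fold.

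Ratios were narrow for every probe set in that part of the range. Of 74 probe sets with a mean log2 signal between 14 and 15 in operated against sham, 0 were 2-fold apart in either direction, and their SD was 0.19 with a range of -0.75 to 0.23. Between 12 and 13, 71 of 405 were 2-fold apart (17.5%) and the SD was 0.76. Between 13 and 14, 10 of 165 were (6.06%) and the SD was 0.53. The SFTPC ratio of 0.08 lay above 89.2% of the ratios of its own bin, whose median was -0.16, and that of 0.12 for the non-operated lung above 80.5%. Whether saturation of the array held these ratios down was not tested.

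SFTPA1 lay lower in the range, where 2-fold ratios were common, and was level. Its log2 signal was 12.13 in sham, 11.97 in the non-operated lung and 12.23 in the operated lung, or 15.4%, 12.9% and 17.0% of the array maximum. The order put the operated lung first and the non-operated lung last. Against sham the differences of 0.10 and -0.16 were smaller than the probe set spread. Between the lungs the difference was 0.25, or 1.19-fold, slightly more than the pooled SD of 0.22, and 95.0% of the 463 probe sets in the same bin had lower ratios.

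**Figure D3:**
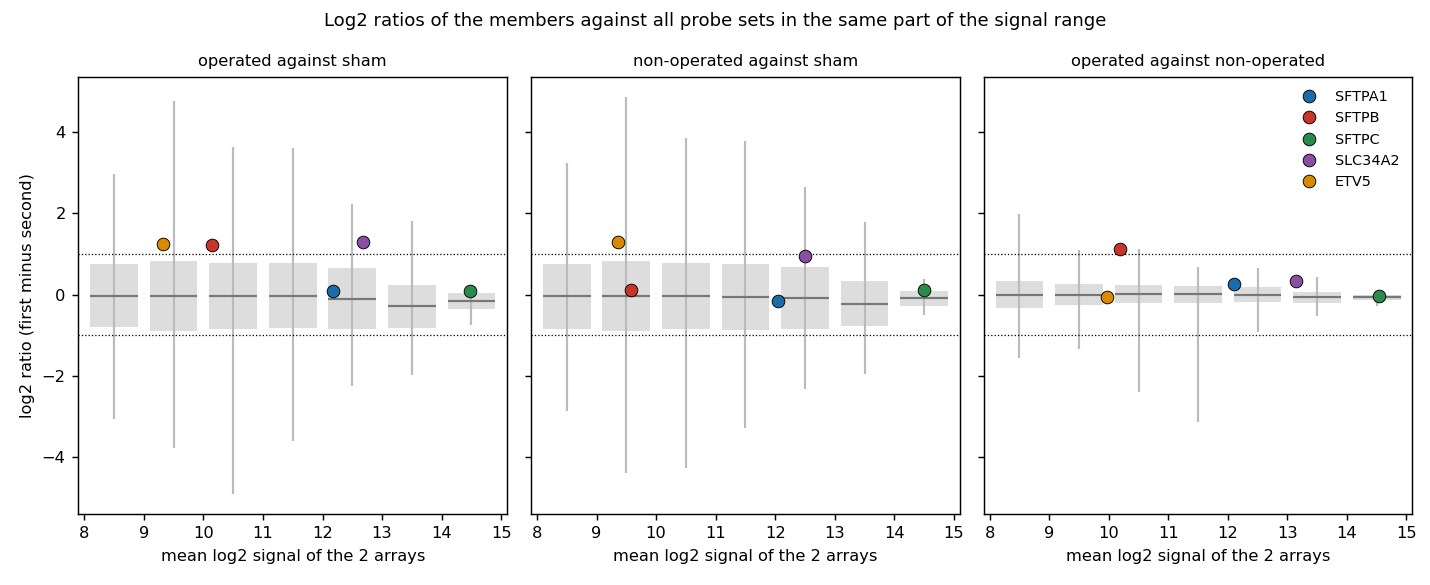
Log2 ratio (vertical axis) against the mean log2 signal of the 2 arrays compared (horizontal axis) for the 5 genes as coloured points, over all probe sets above the floor on both arrays grouped in bins of 1 log2 unit. Grey boxes are the bin's median with 1 SD on each side, thin lines run from its lowest to its highest ratio, and dotted lines mark 2-fold. The boxes shrink to an SD of 0.19 at the right of the first panel, where SFTPC lies, and SFTPB stands at the top of its bin in the last panel.

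SLC34A2, which takes up the phosphate that type 2 cells use for phospholipid, was at least 2-fold above sham in the operated lung and just short of that in the other lung. Its log2 signal was 12.03 in sham, 12.98 in the non-operated lung and 13.32 in the operated lung. Sham was the lowest of the 3 arrays, and the lungs were 0.34 apart. The ratio was 2.45-fold for operated against sham (log2 1.29) and 1.93-fold for non-operated against sham (log2 0.95), which falls just under the 2-fold threshold. Between the lungs it was 1.27-fold, a log2 ratio of 0.34 beside the pooled probe set SD of 0.22. SLC34A2 is itself read by 1 named probe set. In the same bin 1 of 189 probe sets had a higher ratio. The signal was 14.4% of the array maximum in sham, 25.9% in the non-operated lung and 36.2% in the operated lung. For both comparisons with sham the mean signal lay between 12 and 13, where 2-fold ratios were common.

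ETV5 was the member that differed from sham about equally in the lungs, and it is read by a pair of probe sets. The brighter read 8.70 in sham, 10.003 in the non-operated lung and 9.94 in the operated lung. The dimmer read 6.01, 7.83 and 8.13, with the sham value under the floor. On both probe sets sham was lowest and stood apart from the lungs. The brighter gave 2.36-fold for operated against sham (log2 1.24) and 2.46-fold for non-operated against sham (log2 1.30). The dimmer gave lower bounds of 1.75-fold and 1.41-fold, and differences of 2.12 and 1.81 on the log2 scale when no floor was set. Between the lungs the brighter stood at -0.06 and the dimmer at 0.31, so the probe sets differed in sign there. For ETV5 the 2-fold ratio depends on the floor. With the floor raised to the 75th percentile the ratios were 0.69 and 0.75, because the sham signal of 8.70 is then under it.

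The remaining genes of the surfactant system were described from lists. Their counts are read against the shares of all counted genes, which were 8.65% higher and 8.79% lower in operated against sham and 8.96% higher and 8.55% lower in non-operated against sham, and their medians against all-gene medians of -0.11 and -0.10. For type 2 markers beyond the 5 genes, 10 of 25 listed genes had a singly named probe set and 7 were counted in operated against sham, with 0 at least 2-fold higher, 0 lower and a median log2 ratio of 0.28. In the non-operated lung 8 were counted, again with 0 higher and 0 lower, and the median was 0.18. SFTPD, which encodes the second surfactant collectin, surfactant protein D, had its lowest signal in sham on each of its probe sets. The brighter read 11.98 in sham, 12.75 in the non-operated lung and 12.65 in the operated lung, and the other 10.22, 11.25 and 11.21. Their log2 ratios were 0.67 and 0.99 for operated against sham and 0.77 and 1.03 for non-operated against sham, while between the lungs they were -0.10 and -0.04. Of the ratios against sham, 1 of 4 passed 2-fold, that of the dimmer probe set in the non-operated lung. CTSH, a cathepsin that takes part in processing the surfactant protein B and C precursors, stood at -0.12 and -0.11 against sham. NKX2-1, ABCA3, LAMP3 and NAPSA, which mark type 2 cells, had no singly named probe set and were not analysed here.

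In the list of surfactant protein and lamellar body genes, the storage organelle of surfactant, 1 of 10 counted genes was at least 2-fold higher in the operated lung than in sham and 0 were lower, with a median of 0.11. In the non-operated lung it was 1 of 11, with a median of 0.03. These shares are near the 8.65% and 8.96% of all genes. The higher gene was ANXA2, an annexin that takes part in lamellar body fusion, at 2.42-fold and 2.20-fold. The lysosomal membrane protein LAMP1 was at 0.72 and 0.95, and AP3B1, an adaptor subunit that sorts cargo to lysosome-related organelles, at -0.63 and -0.65.

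Of 20 counted genes of surfactant lipid synthesis and turnover, 3 were at least 2-fold higher and 1 lower against sham in each lung, beside 8.65% and 8.96% of all genes higher, with medians of 0.32 in the operated and 0.40 in the non-operated lung. PLA2G1B, a secreted phospholipase A2, was 7.01-fold and 7.02-fold higher. Its sham signal of 7.63 lay just above the floor of 7.33, so a higher floor shrinks these ratios. CHKA, the choline kinase that starts phosphatidylcholine synthesis, was 3.63-fold and 4.32-fold higher, and PRDX6, a peroxiredoxin with phospholipase activity that takes part in surfactant phospholipid recycling, was 2.49-fold and 2.35-fold higher. The lower gene was PTPMT1, a mitochondrial phosphatase of the phosphatidylglycerol and cardiolipin pathway, at -1.02 and -1.44. The fatty acid synthase gene FASN stood at 0.68 and 0.83 and the desaturase gene SCD at 0.13 and -0.32. The elongase gene ELOVL6 stood at -0.97 in the operated lung and, with its non-operated signal under the floor, at -0.98 or lower in the non-operated lung.

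Among transcription factors that regulate surfactant genes, 6 of 13 counted genes were at least 2-fold higher and 0 lower in each lung against sham, beside 8.65% and 8.96% of all genes higher, with medians of 0.59 and 0.79. They were CEBPD at 4.80-fold and 5.26-fold, CEBPB at 2.90-fold and 2.82-fold, the forkhead factor FOXA2 at 2.92-fold and 2.24-fold, GATA6 at 2.88-fold and 2.51-fold, and, with sham signals under the floor, the forkhead factor FOXA1 with lower bounds of 2.11-fold and 2.03-fold and PPARG with lower bounds of 3.09-fold and 3.13-fold. Against these stood the glucocorticoid receptor gene NR3C1 at -0.95 and -0.74, and ELF3. ELF3 was at -0.46 in the operated lung and, with its non-operated signal under the floor, at -0.57 or lower in the non-operated lung. As for ETV5, the 2-fold ratios of FOXA2, GATA6, FOXA1 and PPARG depend on the floor. Their sham signals were 8.40, 8.06, 7.31 and 6.18. All lay below the ETV5 sham signal of 8.70, which was under the raised floor described for that gene. The raised floor therefore shrinks these ratios. The sham signals of CEBPB and CEBPD, 11.53 and 10.73, lay above it. Between the lungs 0 of 14 were 2-fold apart.

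For the pathway from fibroblast growth factor receptors to ETV5, 14 of 36 listed genes had a singly named probe set. It showed 0 of 8 counted genes at least 2-fold higher and 0 lower in the operated lung, with a median of 0.26. In the non-operated lung it showed 0 of 9 higher and 0 lower, with a median of 0.14. Of all genes 8.65% and 8.96% were higher and 8.79% and 8.55% lower, and a count of 0 among this few is near those shares. The receptor FGFR2, which type 2 cells carry, read 8.07 in sham, 8.24 in the non-operated lung and 8.73 in the operated lung. DUSP6, a phosphatase gene induced by the same pathway, stood at -0.02 and 0.24 on its probe sets in operated against sham, and at -0.19 and 0.02 in non-operated against sham. The kinase gene MAPK3 was at 0.84 and 0.98. The ligand genes FGF1, FGF2, FGF7, FGF9 and FGF18 were at or below the floor on all 3 arrays.

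The list of transport genes also held phosphate transporters, but none of these had a singly named probe set. For ion and water transport, 3 of 7 counted genes were at least 2-fold higher in the operated lung and 0 lower, with a median of 0.73. Beside the same 8.65% and 8.96% of all genes higher, 3 of 8 were higher in the non-operated lung, with a median of 0.69. They were AQP1, a water channel of endothelium, at 2.21-fold and 2.93-fold, SGK1, a kinase that raises sodium transport, at 2.74-fold and 2.64-fold, and AQP5, the water channel of type 1 cells, at 2.08-fold and 2.59-fold.

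**Figure D4:**
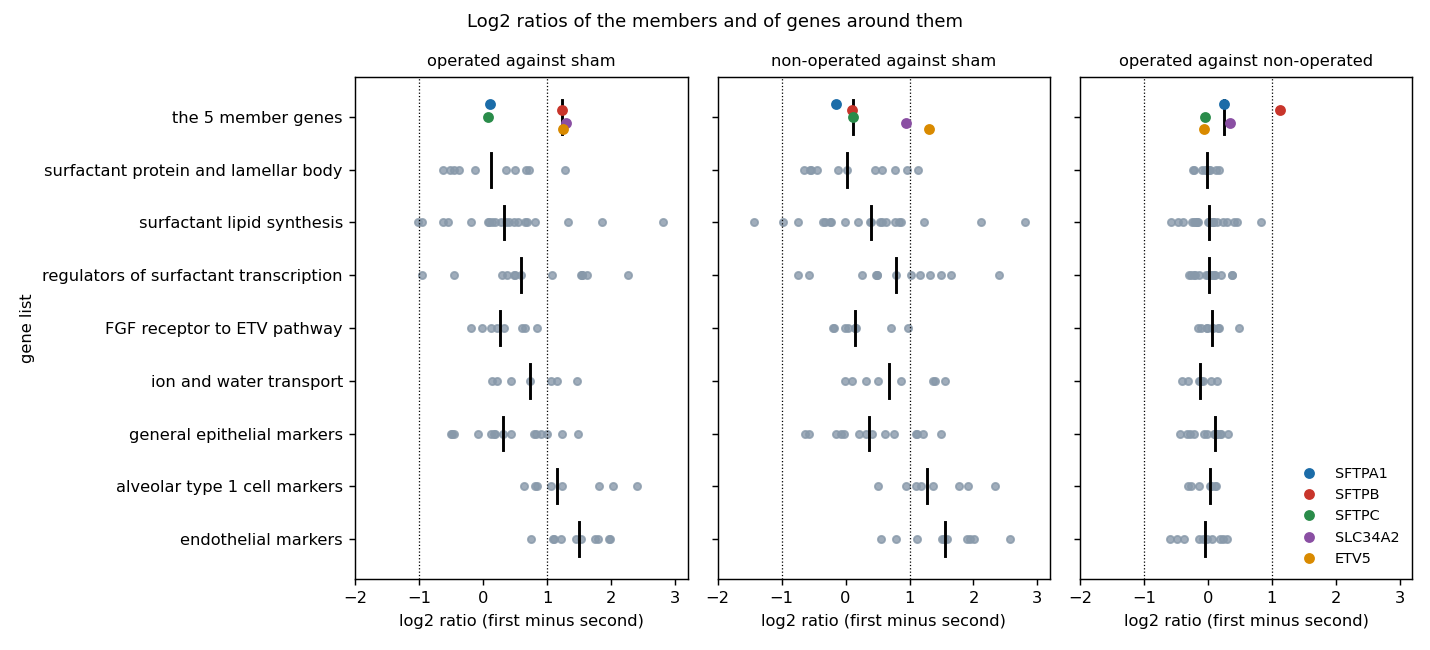
Log2 ratio (horizontal axis) of the 5 genes, coloured by gene, and of the counted genes of 8 lists, in grey, in the 3 comparisons of single arrays. Black bars are medians and dotted lines mark 2-fold. The 5 genes spread from 0.08 to 1.29 in operated against sham, and in the last panel SFTPB at 1.13 is the only point past 2-fold.

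Markers of other cell types differed between the arrays as well, and their part in the values of the 5 genes was not tested. The counts below are read against all counted genes, of which 8.65% were higher and 8.79% lower in operated against sham. In non-operated against sham the shares were 8.96% and 8.55%. General epithelial markers had 2 of 15 counted genes at least 2-fold higher in the operated lung and 4 of 14 in the non-operated lung, with medians of 0.31 and 0.37. Their summed linear signal was 20967 in the operated and 20847 in the non-operated lung against 13897 in sham. Of the counted epithelial markers, 11 of 15 in the operated and 9 of 14 in the non-operated lung stood above 0. EPCAM, the pan-epithelial adhesion molecule, stood at 0.31 and 0.21, and CDH1, epithelial cadherin, at 0.90 and 0.76. On the other side, the keratin genes KRT18 and KRT19 stood at -0.50 and -0.49 in the operated lung. In the non-operated lung they stood at -0.07 and -0.64. Alveolar type 1 cell markers had 5 and 6 of 8 higher, and their sum was 2.64 and 2.59 times sham. Endothelial markers had 9 and 8 of 10 higher and summed to 2.99 and 3.30 times sham, and macrophage markers had 5 of 9 and 5 of 10 higher and summed to 2.15 and 2.19 times. Neutrophil markers had 3 of 3 counted genes higher in each lung, S100A8, S100A9 and S100A12, and summed to 6.15 and 7.57 times sham. S100A9, the brightest of them, had the largest ratios, at 8.92-fold and 10.89-fold. ELANE and MMP9 were at or below the floor on all 3 arrays. Smooth muscle, pericyte and fibroblast markers had 4 of 11 higher in each lung, with 2 and 1 lower, and summed to 1.25 and 1.45 times sham. B and plasma cell markers had 4 and 5 of 6 lower, with medians of -1.70 and -1.66 and sums of 0.540 and 0.533 times sham. JCHAIN, the brightest of that list, weighs most in the sums and stood at -0.51 and -0.49. T and NK cell markers had 4 of 9 lower and 1 higher in each lung, with sums of 0.558 and 0.579. Few airway cell genes could be counted. Club and gland cell markers had 1 of 3 counted genes higher in each lung, TFF3 at 1.07 in the operated and CYP2B22 at no less than 1.11 in the non-operated lung from a sham signal under the floor, with medians of 0.95 and 0.52 and sums of 1.34 and 1.12 times sham. Ciliated cell markers had 0 of 3 higher and 0 lower in each lung, with sums of 1.41 and 1.403 times sham. Red blood cell markers had 1 of 3 higher in each lung, ALAS2, with lower bounds of 1.11 and 1.21 on the log2 scale. The only basal cell marker counted, DAPL1, was at least 4.51-fold lower in both lungs.

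Between the lungs the summed signal of the operated over the non-operated lung was 1.01 for general epithelial markers, 1.02 for type 1 markers and 1.05 for type 2 markers beyond the 5 genes. It was 0.906 for endothelial, 0.982 for macrophage, 0.860 for smooth muscle, pericyte and fibroblast and 0.813 for neutrophil markers. For the club and gland list the summed ratio was 1.202 and for the red blood cell list 1.16. Their median log2 ratios were 0.05 and -0.04, with 2 of 3 and 1 of 3 counted genes above 0. Of the genes in all lists, 0 were 2-fold apart between the lungs, although 10 were when no floor was set.

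For the members with a ratio of at least 2-fold, the genes with the most similar pair of log2 ratios against sham were found among 4386 genes above the floor on all 3 arrays. With 3 arrays this likeness rests on 2 numbers that share the sham array, so it is a description only. For SFTPB, 1 gene lay within a distance of 0.2, COL5A3, at 1.08 for operated and -0.01 for non-operated against sham. The sham and non-operated signals of COL5A3, each 7.53, lay just above the floor. The next nearest to SFTPB were AGPAT1 at a distance of 0.24, MPP7 at 0.30 and REXO2 at 0.32. SLC34A2 had 27 genes within 0.2, led by ZNF219, ATRN, GSDMD and TBC1D20 at distances of 0.03 to 0.07. ETV5 had 64, led by GAB1, BAG3, NEO1 and VCL at distances of 0.05 to 0.06. SFTPB thus had the fewest genes within 0.2 of these members, which restates how few genes were 2-fold higher in the operated than in the non-operated lung.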

How the data were processed

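Biotin-labelled cRNA was made from TRIZOL-extracted RNA with a 3' IVT kit, per the labels' protocols. The deposited table holds log2 values from MAS5, per the submitters' processing notes, whose version and scaling target stay not given in the sources used here. MAS5 gives 1 signal per probe set and scales each array separately, and linear means after trimming 2% from each end were 495.1 to 495.9. No further scaling or detection call was used. Of 23999 probe sets, 64 controls were left out. Names came from the platform annotation, in which 10069 probe sets had 1 gene, 198 several (not named) and 13668 were unnamed here, and 9961 matched the RefSeq table of Sscrofa11.1 by gene ID. The brightest probe set stood for a gene. A gene was counted when above the floor on at least 1 of the 2 arrays. Ratios against a floored value are lower bounds. Depth is not defined for arrays, and their number limits the precision.

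Members and lists were chosen with earlier results of these data known. All probe sets of the members are named. From each list, up to 4 genes a comparison are named by ratio (at least 2-fold, signal at least 4 times the floor, probe sets on 1 side), with 10 pathway genes named whatever their value, and other list genes were named after their values were seen. Similar genes are the 4 nearest by Euclidean distance. Alternatives were median centring, quantile normalization, other floors, the mean of all probe sets and a pseudocount of 50. The ratio step was tested on simulated data. Promoter motifs were not analysed here. Python 3.11.15, numpy and pandas were used.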

Additional observations from a re-analysis of the deposited data

How the results depend on the processing

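SFTPB and SLC34A2 were at least 2-fold higher in operated against sham under all 7 alternatives (log2 1.18 to 1.25 and 1.28 to 1.32), and SFTPB in operated against non-operated lung under all 7 (1.08 to 1.13). SLC34A2 stayed under 2-fold in the non-operated lung (0.94 to 0.97). SFTPA1 and SFTPC stayed within 2-fold throughout. For SFTPA1, SFTPB, SFTPC and SLC34A2 the choice of floor and the averaging of probe sets could not move the ratios. Each has 1 named probe set, with signals above every floor used. Only median centring, quantile normalization and the pseudocount could change these values. ETV5 was past 2-fold under 6 of 7 in each lung, and with a floor on the 75th percentile the count of members 2-fold apart in non-operated against sham was 0 instead of 1. Over all list genes, that floor gave 34 instead of 55 genes 2-fold apart for operated and 36 instead of 57 for non-operated against sham, where fewer genes are counted and ratios against a floored value shrink. Between the lungs the main count of 0 became 10 with no floor, 2 with a floor on the 25th percentile and 1 when a gene's probe sets were averaged. No paired analysis was possible because each group holds 1 array, and no replicate could be left out. With 1 array per group no difference has been set against the spread between animals. No probe set with a mean log2 signal between 14 and 15, as SFTPC had, was 2-fold apart in any comparison. Whether signal near the top of the range limits the SFTPC ratios was not tested.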
